A study of Mus musculus with 12 samples.

Results

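Expression of 41 genes encoding lysosomal hydrolases and lysosomal membrane proteins was followed in mouse embryonic stem (ES) cells during inhibition of the kinase mTOR (mTORi). The genes were chosen by symbol: 8 proteases, 11 glycosidases, 5 sulfatases, 4 lipid hydrolases, 4 activators and other soluble proteins, 4 membrane glycoproteins and 5 channels and transporters. All 41 were found among the 54446 gene identifiers listed, and all passed the filter of a mean of at least 1 TPM (a relative abundance per length of transcript that sums to 1000000 in each library), which left 15727 genes. The 12 libraries of ribosome-depleted total RNA came from 2 lines labelled E14 KH and E14 DNMT3ABKO, each with 2 libraries untreated (0 h), 2 after 72 h and 2 after 144 h in the mTOR inhibitor INK128. The study's methods describe KH2 as wild type and the other line as deficient in both de novo DNA methyltransferases, Dnmt3a and Dnmt3b. They state that both lines grew on mitomycin-treated feeder cells, which no longer divide, and that cells were sorted before RNA extraction, whereas lines of E14 background were kept without feeders. Each genotype was 1 line, and untreated cultures were not sampled at the later times, so the response to mTORi cannot be told apart from time in culture. The study states for its experiments in general that they were repeated independently. The labels do not say whether these replicates were separate cultures, so p-values measure only the spread between these libraries, which may be technical.

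Lysosomes are acidic organelles in which proteins, glycans, sphingolipids and lipid esters are taken apart by soluble hydrolases. Most hydrolases are delivered through the mannose 6-phosphate pathway, several need activator proteins, and the limiting membrane is lined by heavily glycosylated proteins and holds channels and exporters for ions and breakdown products. Active mTORC1 sits on the lysosomal surface and keeps the transcription factors TFEB and TFE3 in the cytoplasm. When mTORC1 is inhibited, these factors can enter the nucleus, where they bind E-box elements in many promoters of lysosomal genes.

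Dnmt3a stood at 54.7 to 144 TPM over the 6 KH libraries and at 7.35 to 21.9 TPM over the 6 DNMT3ABKO libraries, and Dnmt3b at 142 to 258 and 12.7 to 27.5 TPM, so that both genes separated the lines as labelled. TPM does not retain how deeply each library was read. The study summarizes the read depth of its RNA data in a figure, whose values were not used here. Replicates correlated with r of 0.985 (DNMT3ABKO, 0 h) or of at least 0.993 (other groups) across the tested genes, which are not independent of each other. In bulk RNA, fewer cells of a type and less RNA per cell cannot be told apart. TPM gives a gene's share of a library's RNA, so a member called higher need not have more RNA per cell. The study, which scaled its RNA data to spike-ins, reports global repression of the transcriptome under mTORi. It also reports lower global transcription in treated Dnmt3a/b knockout cells.

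The members spanned a wide range of levels. Averaged over the 12 libraries, 5 members reached 100 TPM, 23 lay between 10 and 100 TPM and 13 lay below 10 TPM. The highest were Lamp1, the main glycoprotein of the lysosomal membrane, at 228 TPM, Ctsd, an aspartyl protease, at 219 TPM, Ctsl, a cysteine protease, at 138 TPM, Manba, a beta-mannosidase, at 121 TPM, and Psap, the precursor of the saposins, at 118 TPM. These 5 genes held 46.8% to 53.7% of the summed member TPM in each library. The lowest were the sulfatases Arsb, at 1.56 TPM, and Sgsh, at 1.43 TPM. The summed TPM of all members lay between 1526 and 1898 in every library. Group means were 1798 ± 142 (SD, n = 2), 1671 ± 9.22 and 1529 ± 4.69 TPM over time in KH and 1729 ± 149, 1553 ± 30.6 and 1714 ± 33.9 TPM in DNMT3ABKO cells.

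Promoter sequences were examined for the E-box elements bound by TFEB and TFE3, independently of expression. RefSeq promoter windows (GRCm38.p6, 250 bases before to 50 after the gene start) were matched for 37 of the 41 members, the 4 without one being Ctsb, Asah1, Ctsh and Galns. The palindromic core CACGTG was found in 13 of the 37 members (35.1%), in 8.09% of the 27025 genes with a window and in 7.15% of all 32851 windows. With 1 more base on either strand (TCACGTG), the shares were 32.4% of members and 4.29% of all genes, and with both flanking bases (TCACGTGA) 16.2% and 1.12%. These forms contain each other, so a gene with a longer form is counted in each shorter form. All members passed the level filter, whereas the 27025 genes include untested ones. Among tested genes with a window, 1207 held the core and 8908 did not. For TCACGTG these counts were 716 and 9399, and for TCACGTGA 220 and 9895. The resulting shares are higher than those over all 27025 genes, which therefore understate the background for expressed genes. The longest form searched, with a G added before and a C after, was found in 1 member, Cln3, and in 0.37% of genes. Lamp1 held 4 cores, beginning 61, 45, 28 and 15 bases upstream of its start. A match is a description of the letters in this window and not a measured binding site. The elements of 8 members are shown because these genes stand for the different outcomes: Mcoln1, Glb1 and Clcn7 were called higher at 144 h in both lines, Ctsd, Naglu and Sgsh were called lower, Lamp1 was called in DNMT3ABKO alone, and Cln3 held the longest form. The core is in capitals, with 10 flanking bases on each side, 5′ to 3′ along the gene's strand.
Mcoln1, chr8:3500464-3500489, plus strand: gcgccccgctCACGTGaccgcggcgc
Glb1, chr9:114401020-114401045, plus strand: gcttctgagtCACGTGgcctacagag
Clcn7, chr17:25133388-25133413, plus strand: gatgatagatCACGTGagacctgggc
Lamp1, chr8:13159090-13159115, plus strand: ggcaagatatCACGTGgtccagcgcc
Ctsd, chr7:142387910-142387935, minus strand: gcccgcgtctCACGTGacccgttgag
Naglu, chr11:101070011-101070036, plus strand: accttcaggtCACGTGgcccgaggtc
Sgsh, chr11:119355524-119355549, minus strand: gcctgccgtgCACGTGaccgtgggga
Cln3, chr7:126583342-126583367, minus strand: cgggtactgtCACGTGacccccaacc

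**Figure D1:**
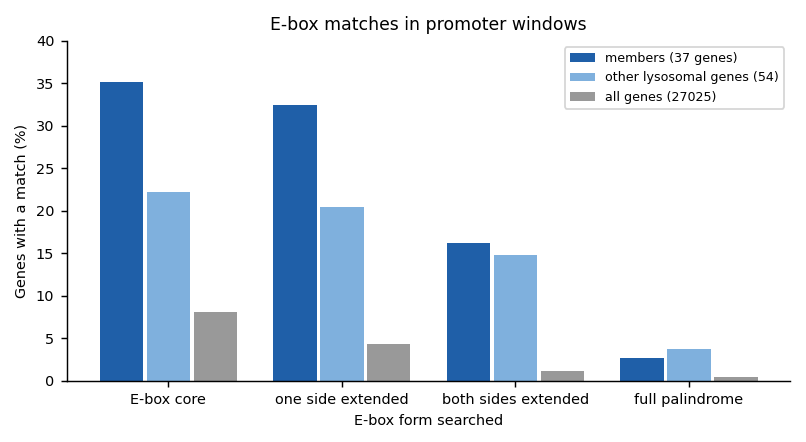
Share of genes (y axis, percent) whose promoter window holds each of 4 E-box forms of increasing length (x axis), for members, other lysosomal genes and all genes. The core was found in 35.1% of members, 22.2% of other lysosomal genes and 8.09% of all genes, which include genes too low to be tested.

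In KH cells the members split after 72 h of mTORi. Of 41 members, 13 were called higher and 12 lower than at 0 h at an adjusted p under 0.05 (limma on log2(TPM + 1), Benjamini-Hochberg over all tested genes), against a background of 28.3% of all genes called higher and 19.5% lower, 47.8% in all. The median log2 fold change of the members was 0.00, beside 0.08 over all genes. At 144 h, 9 members were called higher and 19 lower, where 27.4% of all genes were higher and 23.9% lower (51.3% in all), and the median of the members was -0.20 beside 0.05. The count at 72 h fell to 16 members without KH 0 h replicate 1 and to 15 without KH 72 h replicate 1 or without replicate 2. After division by median-ratio factors, a scaling that sets the typical gene equal between libraries, 10 members were called higher and 17 lower at 72 h.

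In DNMT3ABKO cells members were also called in both directions. At 72 h, 12 members were called higher and 19 lower (background 34.3% higher, 21.6% lower, 56% in all), with a median of -0.08 beside 0.12 over all genes. At 144 h, 14 were called higher and 18 lower (background 31.4% higher, 26.2% lower, 57.6% in all), with a median of -0.16 beside 0.05. Median-ratio scaling moved the median of all genes in the 72 h response from 0.12 to 0.01, and that of the members from -0.08 to -0.20.

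A set of 7 members was called higher in all 4 responses from 0 h: Mcoln1, Ctns, Glb1, Manba, Tpp1, Asah1 and Ppt1. Another 11 were called lower in all 4: Ctsb, Ctsc, Ctsd, Ctsh, Ctsz, Gusb, Naglu, Lipa, Psap, Npc2 and Cd63. Over all genes, 15.5% were higher in all 4 and 12.6% lower in all 4. The 72 h and 144 h responses of a line share their 0 h libraries. Under every alternative run, including leaving out each library in turn, Mcoln1, Ctns, Glb1 and Manba kept their 4 calls, as did Ctsb, Ctsd, Ctsz, Psap, Npc2 and Cd63 among those that were lower. Of the 69 alternative fits of a gene's 4 responses, a call was lost in 2 for Tpp1, 16 for Asah1, 22 for Ppt1, 18 for Ctsc, 3 for Ctsh, 2 for Gusb, 15 for Naglu and 10 for Lipa. Of the 41 members 0 went uncalled in all 4 responses, against 21.4% of all genes. That count did not hold with a term for the replicate number in each line. Neu1 and Ids then lost their only calls, in KH cells at 72 h and at 144 h, and went uncalled. Another count of 0, that of members called higher in one response and lower in another, lies near the background of 3.29%.

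**Figure D2:**
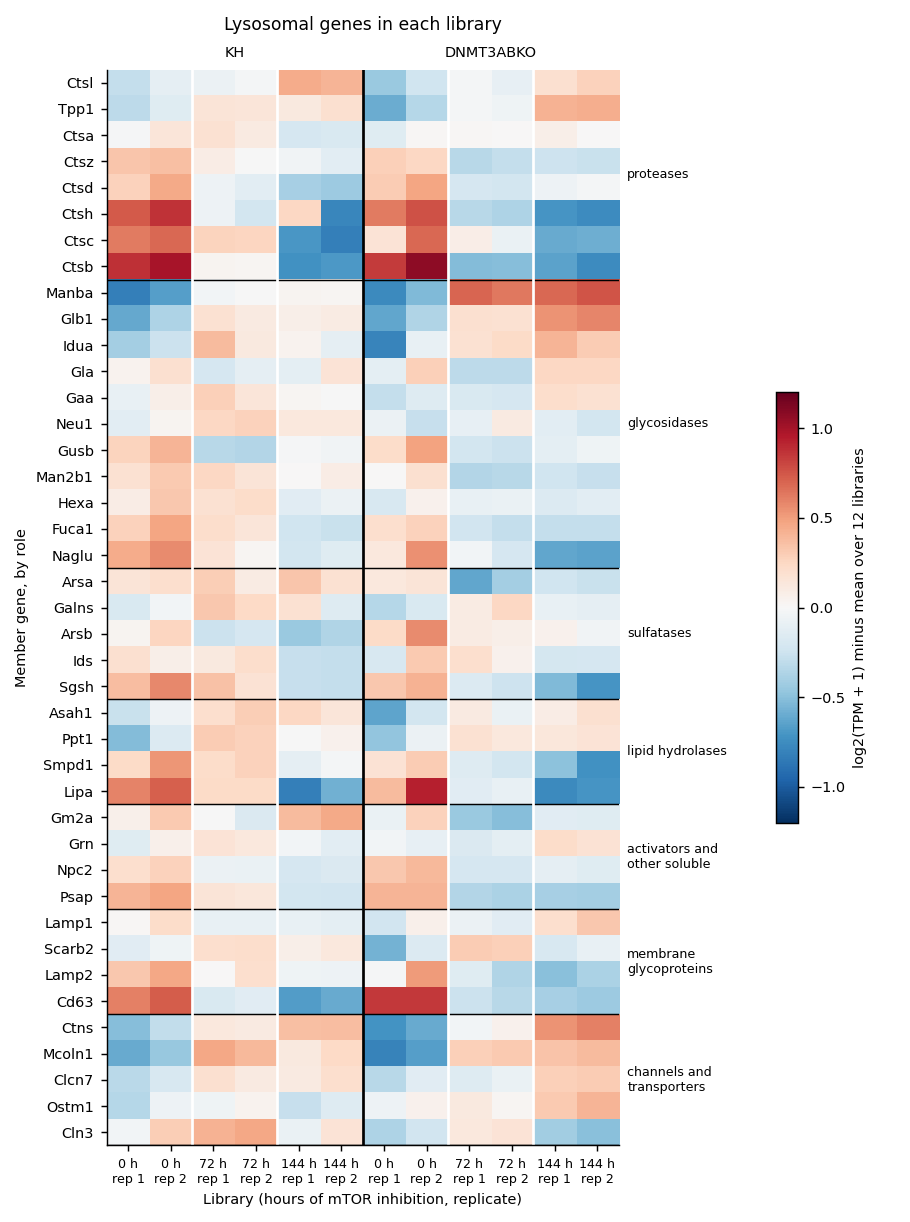
Expression of the 41 members (rows, by role) in the 12 libraries (columns), as log2(TPM + 1) minus the gene's mean over all libraries, with red above and blue below that mean. Mcoln1 and Ctns are blue in all 4 libraries at 0 h and Ctsb, Cd63 and Psap are red there, in both lines.

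The channels and transporters contained no member that was called lower than at 0 h in either line. Over all genes, 19.5% to 26.2% were called lower in these 4 responses and 27.4% to 34.3% higher. Among 5 genes, a count of 0 lower lies near this background, which also applies to the other roles below. Of the 5, 3 were called higher in KH cells at each time, 3 in DNMT3ABKO cells at 72 h and 4 at 144 h, with median log2 fold changes of 0.41, 0.41, 0.45 and 0.54. Mcoln1 (ENSMUSG00000004567.16, mm10 chr8:3500457-3515232), the calcium channel of the lysosomal membrane also called TRPML1, stood at 16.2 and 18.1 TPM in KH cells at 0 h, at 35.1 and 33.4 TPM at 72 h and at 27.6 and 30.0 TPM at 144 h. In DNMT3ABKO cells it stood at 14.1 and 15.6, 31.0 and 31.7, and 32.3 and 33.1 TPM. All 8 treated libraries lay above all 4 untreated ones. Its log2 fold changes at 72 h were 0.96 ± 0.08 (SE; adjusted p = 1.67e-05) in KH and 1.03 ± 0.08 (adjusted p = 5.47e-06) in DNMT3ABKO cells, and those at 144 h were 0.71 ± 0.08 (adjusted p = 6.6e-05) and 1.09 ± 0.08 (adjusted p = 2.22e-06).

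Ctns (ENSMUSG00000005949.9, chr11:73183596-73199042) encodes cystinosin, the exporter of cystine from the lysosome. It stood at 7.30 and 8.60 TPM in KH cells at 0 h, 11.9 and 11.7 TPM at 72 h and 14.2 and 14.3 TPM at 144 h, and in DNMT3ABKO cells at 6.16 and 6.78, 10.5 and 11.2, and 16.1 and 16.97 TPM. No treated library overlapped an untreated one. The log2 fold change at 144 h was 0.77 ± 0.09 (adjusted p = 8.52e-05) in KH and 1.23 ± 0.09 (adjusted p = 2.13e-06) in DNMT3ABKO cells. Clcn7, the chloride-proton exchanger, was called higher in KH cells at both times (0.41 and 0.41) and in DNMT3ABKO cells at 144 h (0.54), with 0.12 and an adjusted p of 0.271 at 72 h. Its partner subunit Ostm1 was called in 1 of the 4 responses, DNMT3ABKO at 144 h (0.37), and lost that call without 0 h replicate 1 or 144 h replicate 2. Cln3, a membrane protein mutated in juvenile Batten disease, was called higher at 72 h in DNMT3ABKO cells (0.45, lost without 72 h replicate 2) and had log2 fold changes of -0.09 and -0.16 at 144 h in KH and DNMT3ABKO cells, with adjusted p of 0.562 and 0.292. The share of these 5 genes in the summed member TPM was 3.41%, 5.50% and 5.42% over time in KH and 3.20%, 5.28% and 5.37% in DNMT3ABKO cells.

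The glycosidases, which remove sugars from glycoproteins, glycolipids and glycosaminoglycans, were divided. In KH cells 5 of 11 were called higher and 2 lower at 72 h, and 2 higher and 4 lower at 144 h. In DNMT3ABKO cells the counts were 3 higher and 5 lower, and 4 higher and 4 lower. Manba (ENSMUSG00000028164.15, chr3:135485611-135571404) had the highest log2(TPM + 1) fold change of the group in all 4 responses. It stood at 62.9 and 70.3 TPM in KH cells at 0 h, 109 and 111 TPM at 72 h and 114 and 113 TPM at 144 h, and in DNMT3ABKO cells at 65.2 and 77.2, 181 and 174, and 180 and 189 TPM. The untreated libraries of the lines overlapped, whereas every treated DNMT3ABKO library lay above every treated KH library. The log2 fold changes were 0.72 ± 0.09 (adjusted p = 0.000114) at 72 h and 0.77 ± 0.09 (adjusted p = 5.22e-05) at 144 h in KH cells, and 1.31 ± 0.09 (adjusted p = 1.58e-06) and 1.37 ± 0.09 (adjusted p = 5.4e-07) in DNMT3ABKO cells. As ratios of mean TPM without a pseudocount, Manba reached 1.71 times its 0 h level in KH and 2.59 times in DNMT3ABKO cells at 144 h, while Naglu, a low member, stood at 0.494 and 0.317 times its own, which is a larger change. The share of Manba of the summed member TPM was 3.70%, 6.59% and 7.44% over time in KH and 4.11%, 11.4% and 10.8% in DNMT3ABKO cells.

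Glb1 (ENSMUSG00000045594.10, chr9:114401076-114474898), the acid beta-galactosidase, stood at 27.2 and 32.4 TPM at 0 h, 48.1 and 45.6 TPM at 72 h and 44.3 and 45.1 TPM at 144 h in KH cells. In DNMT3ABKO cells it stood at 27.02 and 32.7, 48.3 and 47.9, and 61.6 and 63.9 TPM, again with no overlap between treated and untreated libraries. The 72 h log2 fold changes were 0.64 ± 0.10 (adjusted p = 0.00063) in KH and 0.68 ± 0.10 (adjusted p = 0.00031) in DNMT3ABKO cells. The gene shares 6172 bases of its span with Tmppe on the same strand, which was also called higher in all 4 responses (0.88 to 1.24), and reads of the shared part cannot be assigned with certainty. Idua, the alpha-iduronidase, was called higher in KH cells at 72 h (0.58) and in DNMT3ABKO cells at both times (0.65 and 0.80), and its KH call was lost without a filter and without any one of the 4 libraries compared. It shares 9342 bases of its span with Dgkq on the other strand, which was called higher in KH cells at 72 h (0.35, adjusted p = 0.03) and had 0.01, -0.06 and -0.26 in the other 3 responses, with no call. Gusb, the beta-glucuronidase, was lower in all 4 responses (-0.68 and -0.37 in KH, -0.59 and -0.43 in DNMT3ABKO cells), and so was Naglu, which acts on heparan sulfate (-0.41, -0.69, -0.45 and -0.97). Fuca1, a fucosidase, was lower in 3 of the 4 responses, at 144 h in KH (-0.63) and at both times in DNMT3ABKO cells (-0.50 and -0.52). Gla, Gaa, Neu1, Hexa and Man2b1 were called in 1 or 2 of the 4 responses each, with log2 fold changes between -0.44 and 0.42.

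The proteases were mostly lower. Of 8, 1 was called higher and 5 lower in KH cells at 72 h, 2 higher and 6 lower at 144 h, and 2 higher and 5 lower at each time in DNMT3ABKO cells, with medians of -0.36, -0.61, -0.50 and -0.48. Ctsb (ENSMUSG00000021939.8, chr14:63122462-63145923), which encodes the cysteine protease cathepsin B, had the lowest log2(TPM + 1) fold change of all members in 3 of the 4 responses. As a ratio of mean TPM it was lowest in 1 of them, KH at 144 h (0.311), while in DNMT3ABKO cells Ctsh had 0.334 and 0.189 beside 0.351 and 0.308 for Ctsb. It stood at 73.5 and 79.7 TPM in KH cells at 0 h, 40.6 and 40.3 TPM at 72 h and 23.5 and 24.2 TPM at 144 h, and in DNMT3ABKO cells at 71.4 and 84.4, 27.2 and 27.4, and 24.9 and 23.1 TPM. All untreated libraries lay above all treated ones. The log2 fold changes were -0.90 ± 0.09 (adjusted p = 3.06e-05) at 72 h and -1.64 ± 0.09 (adjusted p = 2.97e-07) at 144 h in KH cells, and -1.47 ± 0.09 (adjusted p = 8.15e-07) and -1.65 ± 0.09 (adjusted p = 1.37e-07) in DNMT3ABKO cells. Over 774 bases its span overlaps Fdft1 on the other strand, which was also called lower in all 4 responses (-0.29 to -1.01). The sources used here do not state whether the quantification used strand.

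Ctsc, which encodes the activator of granule serine proteases, stood at 12.2 and 12.8 TPM in KH cells at 0 h, 9.27 and 9.19 TPM at 72 h and 4.27 and 3.85 TPM at 144 h. In DNMT3ABKO cells it stood at 8.57 and 12.8, 8.06 and 7.11, and 4.64 and 4.68 TPM. The 144 h log2 fold changes were -1.42 ± 0.15 (adjusted p = 3.59e-05) in KH and -1.02 ± 0.15 (adjusted p = 0.000223) in DNMT3ABKO cells. Ctsh, a low member with aminopeptidase activity, stood at 3.58 and 4.01 TPM in KH cells at 0 h, 1.64 and 1.35 TPM at 72 h and 2.25 and 0.596 TPM at 144 h, and at 3.22 and 3.66, 1.17 and 1.12, and 0.679 and 0.623 TPM in DNMT3ABKO cells. The untreated libraries lay above all treated ones, with the KH replicates at 144 h far apart. The 72 h log2 fold change was -0.94 ± 0.26 (adjusted p = 0.0125) in KH cells, a call that was lost without a filter, without KH 0 h replicate 2 and without KH 72 h replicate 2 (adjusted p up to 0.0734). In DNMT3ABKO cells the values were -1.04 ± 0.26 (adjusted p = 0.00613) at 72 h and -1.43 ± 0.26 (adjusted p = 0.000891) at 144 h.

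Ctsd fell from 260 and 295 TPM at 0 h to 205 and 197 TPM at 72 h and 162 and 158 TPM at 144 h in KH cells, and in DNMT3ABKO cells from 265 and 298 TPM to 186 and 184 and to 205 and 211 TPM. Its log2 fold changes at 144 h were -0.78 ± 0.08 (adjusted p = 2.29e-05) and -0.43 ± 0.08 (adjusted p = 0.00083). Ctsl and Tpp1 went the other way. Ctsl stood at 111 and 126 TPM in KH cells at 0 h, 130 and 133 TPM at 72 h and 185 and 181 TPM at 144 h, and was called higher at 144 h in both lines (0.63 ± 0.08, adjusted p = 0.000173, and 0.58 ± 0.08, adjusted p = 0.000226) and in DNMT3ABKO cells at 72 h (0.28), a call that was lost without replicate 1 of either DNMT3ABKO group in that comparison. Tpp1, a tripeptidyl peptidase, was called higher in all 4 responses (0.38 and 0.38 in KH, 0.43 and 0.90 in DNMT3ABKO cells).

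**Figure D3:**
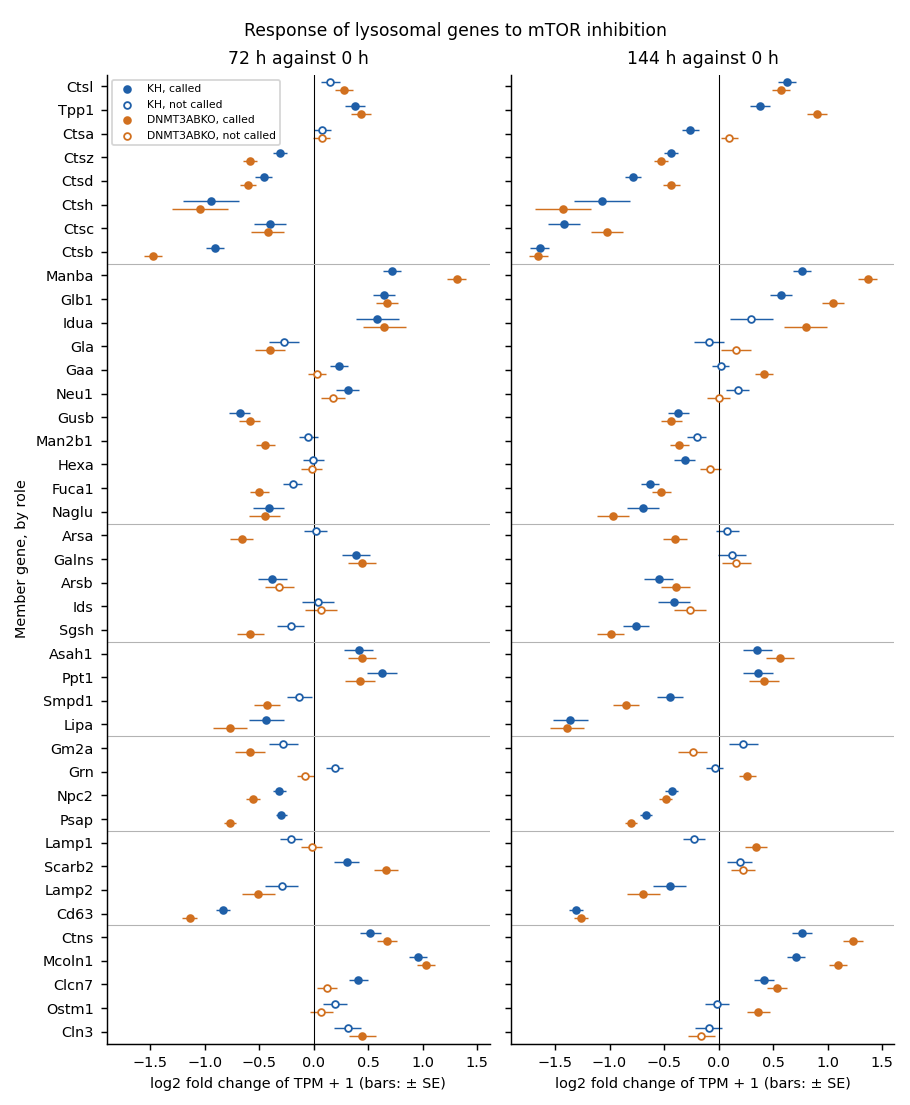
Log2 fold change of TPM + 1 against 0 h (x axes, bars ± SE) for the 41 members by role (y axis), at 72 h (left) and 144 h (right), with KH in blue, DNMT3ABKO in orange and filled points for an adjusted p under 0.05. Mcoln1, Ctns, Manba and Glb1 lie to the right and Ctsb, Ctsh, Lipa and Cd63 to the left in all 4 responses.

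Among the sulfatases, which desulfate glycosaminoglycans and sulfatides, 1 of 5 was called higher and 1 lower at 72 h in KH cells, and 0 higher and 3 lower at 144 h. The counts in DNMT3ABKO cells were 1 higher and 2 lower, and 0 higher and 3 lower. Sgsh, the heparan sulfate sulfamidase, had the lowest log2 fold change of the group at 144 h in both lines (-0.76 and -0.99). Galns was called higher at 72 h in both lines (0.39 and 0.44), calls that were lost in KH cells without 0 h replicate 1 or either 72 h replicate and in DNMT3ABKO cells without 0 h replicate 1 or 72 h replicate 2. These genes were low, with no library above 10 TPM for any of the 5, and log2(TPM + 1) understates changes at such levels.

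The 4 lipid hydrolases were evenly divided. Asah1, the acid ceramidase, and Ppt1, a palmitoyl-protein thioesterase, were called higher in all 4 responses, with log2 fold changes of 0.36 to 0.57 and 0.36 to 0.63. Lipa (ENSMUSG00000024781.15, chr19:34492318-34527474), the acid lipase of cholesteryl esters and triglycerides, stood at 10.04 and 11.03 TPM in KH cells at 0 h, 7.54 and 7.53 TPM at 72 h and 3.14 and 3.89 TPM at 144 h. In DNMT3ABKO cells it stood at 8.52 and 12.9, 5.66 and 5.86, and 3.30 and 3.46 TPM, with every treated library below every untreated one. The 144 h log2 fold changes were -1.36 ± 0.16 (adjusted p = 6.97e-05) in KH and -1.39 ± 0.16 (adjusted p = 4.12e-05) in DNMT3ABKO cells. Smpd1, the acid sphingomyelinase, was lower at 144 h in both lines (-0.45 and -0.85), the KH call being lost without 0 h replicate 2 or 144 h replicate 1.

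Of the activators and other soluble proteins, Psap and Npc2, the intralysosomal cholesterol carrier, were lower in all 4 responses. Psap (ENSMUSG00000004207.14, chr10:60277627-60302597) stood at 153 and 160 TPM in KH cells at 0 h, 128 and 127 TPM at 72 h and 98.5 and 98.1 TPM at 144 h, and in DNMT3ABKO cells at 152 and 152, 89.7 and 88.1, and 87.1 and 86.4 TPM. Npc2 had log2 fold changes of -0.32 and -0.43 in KH and -0.56 and -0.49 in DNMT3ABKO cells. Gm2a, the activator of ganglioside breakdown, was called lower in DNMT3ABKO cells at 72 h alone (-0.58), and Grn, which encodes progranulin, was called higher in DNMT3ABKO cells at 144 h alone (0.26). The difference between lines in the response was not called for either gene (adjusted p = 0.461 for Gm2a at 72 h and 0.132 for Grn at 144 h), and the call of Grn was lost without DNMT3ABKO 144 h replicate 1.

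The membrane glycoproteins moved in different directions. Cd63 (ENSMUSG00000025351.14, chr10:128900989-128912822), a tetraspanin of late endosomes and lysosomes, stood at 140 and 153 TPM in KH cells at 0 h, 80.6 and 83.3 TPM at 72 h and 57.2 and 60.2 TPM at 144 h. In DNMT3ABKO cells it stood at 166 and 166, 76.7 and 72.9, and 69.3 and 67.8 TPM. The untreated libraries lay far above all treated ones, and the log2 fold changes were -0.83 ± 0.06 (adjusted p = 8.77e-06) and -1.31 ± 0.06 (adjusted p = 2.14e-07) in KH and -1.14 ± 0.06 (adjusted p = 7.05e-07) and -1.26 ± 0.06 (adjusted p = 1.26e-07) in DNMT3ABKO cells. Its share of the summed member TPM was 8.16% at 0 h and 3.84% at 144 h in KH and 9.63% and 4% in DNMT3ABKO cells. Lamp2, the receptor of chaperone-mediated autophagy, was called lower at 144 h in both lines (-0.45 and -0.69) and at 72 h in DNMT3ABKO cells (-0.51). Scarb2, the sorting receptor of beta-glucocerebrosidase, was called higher at 72 h in both lines (0.30 and 0.66). The KH calls of Lamp2 at 144 h and of Scarb2 at 72 h were lost without any one of the 4 libraries compared, and the 72 h call of Lamp2 without replicate 2 of either DNMT3ABKO group. Lamp1 stood at 193 to 283 TPM in all libraries and was called in 1 of the 4 responses, DNMT3ABKO at 144 h (0.35 ± 0.10, adjusted p = 0.0131), a call that was lost without DNMT3ABKO 0 h replicate 1 or 144 h replicate 2. Over 3317 bases its span overlaps Grtp1 on the other strand, which was called higher in all 4 responses (0.82 to 1.32).

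**Figure D4:**
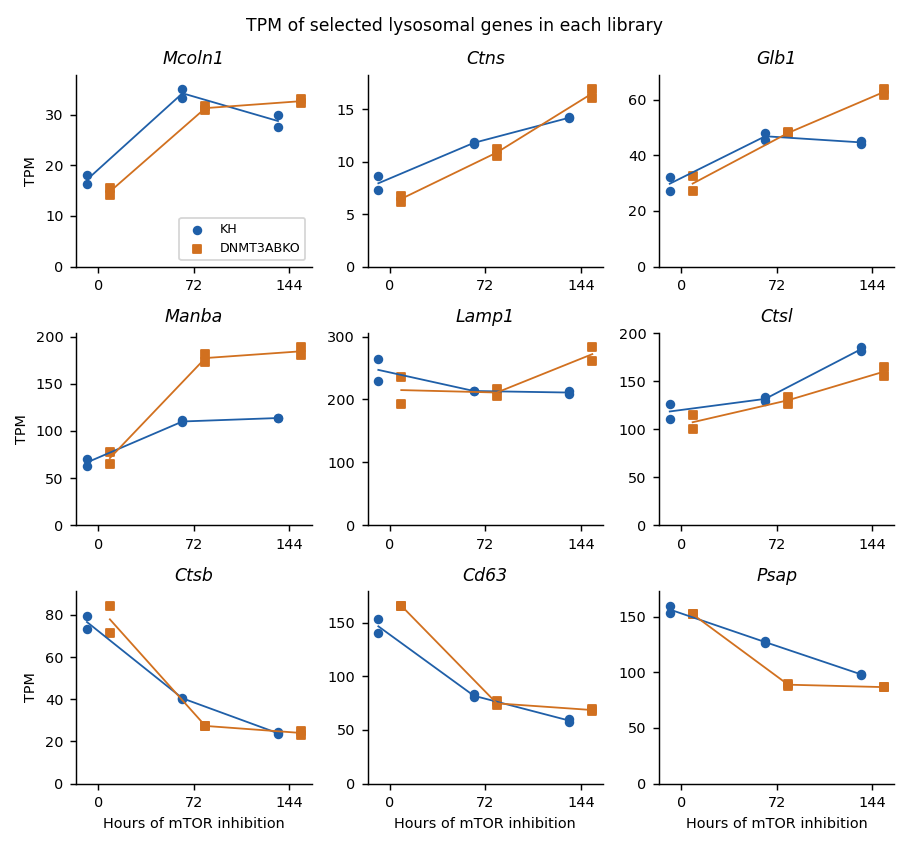
TPM (y axes, from 0) of 9 members in each library against hours of mTORi (x axes), with circles for KH, squares for DNMT3ABKO and lines through the group means. Ctsb falls from 71.4 to 84.4 TPM in the 4 untreated libraries to 23.1 to 24.9 TPM at 144 h, and Manba separates the lines at 72 and 144 h.

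Markers of other cell types moved in the same libraries. The summed TPM of 25 fibroblast genes was 3023 to 3356 in KH cells at 0 h, 984 to 1012 at 72 h and 238 to 259 at 144 h, and 3451 to 3560, 776 to 845 and 270 to 280 in DNMT3ABKO cells. None of these genes was at 0 in both replicates of a group. Of the 23 that were tested, 23 were called lower at 72 h and 22 at 144 h in KH cells, and 22 at each time in DNMT3ABKO cells. The exception was Twist1, a transcription factor of mesenchymal cells, which was called higher in DNMT3ABKO cells (0.37 and 0.46) and had -0.20 (adjusted p = 0.28) in KH cells at 144 h. The summed TPM of 17 macrophage genes was 371 to 405, 280 to 288 and 41.5 to 42.7 in KH cells, and 318 to 349, 187 to 190 and 60.6 to 63.4 in DNMT3ABKO cells. Of the 16 that were tested, 3 were called higher and 9 lower at 72 h in KH cells, and 0 and 16 at 144 h. In DNMT3ABKO cells the counts were 1 higher and 11 lower, and 0 and 15. At 144 h, Aif1 and C1qb were at 0 in both KH libraries and Aif1 in both DNMT3ABKO libraries, and 13 and 7 of the 17 genes were under 1 TPM in both. The sum of 12 ES cell markers was 3032 to 3276, 4463 to 4594 and 4325 to 4411 in KH cells, and 2811 to 3055, 4330 to 4332 and 4311 to 4336 in DNMT3ABKO cells. Of these 12 markers, 11 were called higher and 0 lower at 72 h in KH cells, and 10 and 0 at 144 h. In DNMT3ABKO cells the counts were 10 and 1, and 8 and 1. Their median log2 fold changes were 0.49 and 0.36 in KH and 0.37 and 0.39 in DNMT3ABKO cells. Many cell types express lysosomal genes. No member was in any of the 3 marker lists, which follows from how the lists were chosen. It does not show which cells expressed a member. Because TPM are shares, less RNA from other cell types also raises the shares of the remaining genes. The part of the other cell types in the falls of Ctsb, Cd63, Lipa, Psap and the other members that were lower was not tested. Nor was their part tested in the rises of Mcoln1, Ctns, Glb1, Manba, Tpp1, Asah1, Ppt1 and the other members that were higher.

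**Figure D5:**
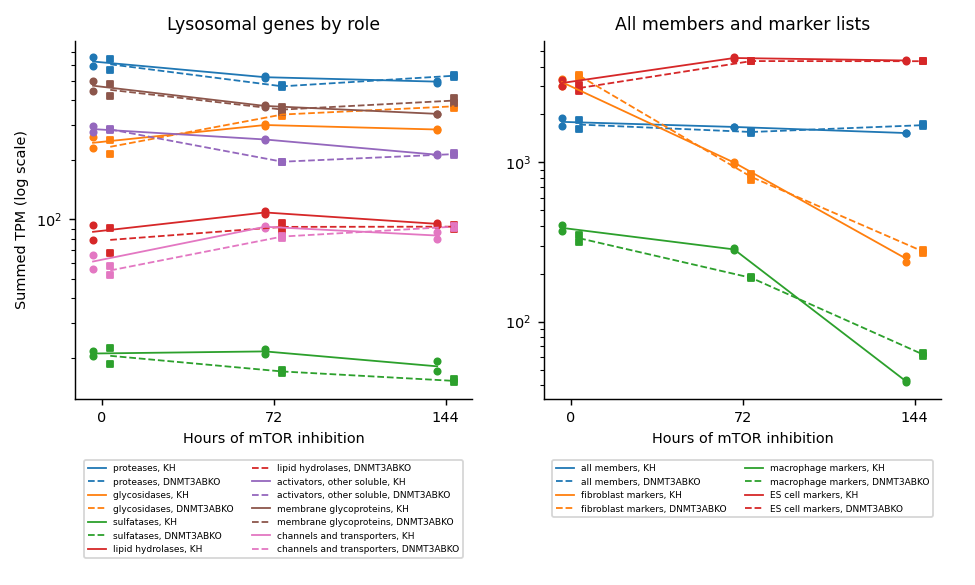
Summed TPM (y axes, log scale) against hours of mTORi (x axes) for the members by role (left) and for all members and the marker lists (right), with points for libraries, solid lines for KH means and dashed lines for DNMT3ABKO means. All members together stay between 1526 and 1898 TPM, while the fibroblast sum is 3023 to 3560 TPM at 0 h and 238 to 280 TPM at 144 h.

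The step from 72 to 144 h was examined next. In KH cells 3 members were called higher at 144 than at 72 h and 11 lower (background 7.24% higher, 15.6% lower, 22.9% in all), and in DNMT3ABKO cells 9 higher and 7 lower (background 8.81%, 18.5% and 27.3%). The members called higher in KH cells were Ctsl (0.47), Gusb (0.31) and Gm2a (0.51). Those in DNMT3ABKO cells were Ctsl, Tpp1, Gaa, Gla, Glb1, Grn, Lamp1, Ctns and Clcn7, with log2 differences of 0.29 to 0.56. The difference between the lines in this step was not tested. Leaving out a library of these groups lowered the KH count of 14 to 6 (72 h replicate 1), 9 (72 h replicate 2) or 8 (either 144 h replicate), and the DNMT3ABKO count of 16 to 4 (72 h replicate 1) or 7 (72 h replicate 2 or either 144 h replicate). Median-ratio scaling gave 14 higher and 7 lower in DNMT3ABKO cells.

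The lines were then compared at each time. At 0 h limma called 0 of 41 members (background 4.92% higher, 4.14% lower, 9.06% in all), with 8 at an unadjusted p under 0.05, 7 of them lower in DNMT3ABKO cells. The smallest adjusted p was 0.0571, for Cln3. The replicates of DNMT3ABKO at 0 h differed more than those of other groups (residual SD 0.27 against 0.13 to 0.18 on the log2 scale), and 13 members were called without its replicate 2 and 1 without KH 0 h replicate 1. With a term for the replicate number added for each line (the replicate block), 1 was called, Cln3. Same-numbered 0 h libraries of the 2 lines deviated together (r = 0.34 across tested genes), and no term paired them across lines. At 72 h, 1 member was called higher in DNMT3ABKO than in KH cells and 10 lower (background 9.26% higher, 10% lower, 19.3% in all), with a median difference of -0.21 beside -0.04 over all genes. The count of 11 became 17 without either replicate of DNMT3ABKO at 0 h, 5 without KH 72 h replicate 1 and 6 without DNMT3ABKO 72 h replicate 2. The 1 that was higher was Manba (0.68 ± 0.09, adjusted p = 0.00038). The 10 that were lower were Arsa, Man2b1, Ctsb, Psap, Sgsh, Fuca1, Smpd1, Gaa, Ctsz and Grn, with log2 differences of -0.29 to -0.71. With the replicate block 9 of the 11 kept their call and Sgsh and Grn did not. The macrophage markers were also lower in DNMT3ABKO cells at 72 h, with 15 of 16 called and a median of -0.57, and their part in these differences was not tested.

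Arsa (ENSMUSG00000022620.14, chr15:89472476-89477425), the sulfatase of sulfatides, had the lowest difference at 72 h. It stood at 9.01 and 7.71 TPM in KH and 4.31 and 5.13 TPM in DNMT3ABKO cells at 72 h, after 8.07 and 8.38 and 7.93 and 8.09 TPM at 0 h. The lines overlapped closely at 0 h and were apart at 72 h (-0.71 ± 0.11, adjusted p = 0.00132). Ctsb was lower in DNMT3ABKO cells at 72 h (-0.55 ± 0.09, adjusted p = 0.00165) and had a difference of 0.01 at 144 h, where the libraries of both lines stood at 23.1 to 24.9 TPM.

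At 144 h, 8 members were called higher in DNMT3ABKO than in KH cells and 7 lower (background 11% higher, 15.5% lower, 26.5% in all), with a median difference of 0.01 beside -0.04. Higher were Manba, Ostm1, Glb1, Arsb, Ctsd, Lamp1, Grn and Cd63, and lower were Gm2a, Smpd1, Arsa, Cln3, Naglu, Man2b1 and Psap. Manba differed by 0.69 ± 0.09 (adjusted p = 0.000259). Ostm1 stood at 8.44 and 9.24 TPM in KH and at 13.2 and 14.2 TPM in DNMT3ABKO cells (0.58 ± 0.11, adjusted p = 0.00361). Gm2a stood at 7.05 and 7.48 TPM in KH and at 4.65 and 4.61 TPM in DNMT3ABKO cells (-0.55 ± 0.14, adjusted p = 0.0136), and lost its call without any one of these 4 libraries. Smpd1 stood at 7.49 and 7.99 TPM in KH and at 5.49 and 4.54 TPM in DNMT3ABKO cells (-0.54 ± 0.12, adjusted p = 0.00813), and lost its call without replicate 2 of either group. The count of 15 became 6 without either KH 144 h replicate, 7 and 5 without DNMT3ABKO 144 h replicate 1 and 2, and 23 without either DNMT3ABKO 0 h replicate. With the replicate block 11 of the 15 kept their call, and Naglu, Arsb, Psap and Grn did not. Median-ratio scaling gave 13 higher and 7 lower. The macrophage markers were higher in DNMT3ABKO cells at this time, with 10 of 16 called and a median of 0.47. Man2b1, Galns, Asah1, Lamp1 and Mcoln1 lie on chromosome 8, where the median difference between the lines was -0.18 over 791 tested genes at 144 h. It was -0.04 over all genes and -0.02 over 579 genes of chromosome X, and the other chromosomes were not examined.

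The response itself differed between the lines for few members. At 72 h the difference between lines in the response was called for 4 of 41 members (background 3.38% higher, 1.86% lower, 5.23% in all), 1 higher in DNMT3ABKO and 3 lower. Manba rose more in DNMT3ABKO cells (0.59 ± 0.12, adjusted p = 0.0199), and Arsa (-0.68 ± 0.15, adjusted p = 0.0309), Ctsb (-0.57 ± 0.12, adjusted p = 0.0247) and Psap (-0.47 ± 0.08, adjusted p = 0.00664) had lower log2 fold changes there. The count of 4 became 1 without replicate 1 of KH or of DNMT3ABKO at 72 h and 2 without replicate 2 of either, or without either KH 0 h replicate, whereas Psap was called under all 18 alternatives. With the replicate block it became 2, as Ctsb and Arsa lost their calls. At 144 h the difference was called for 3 members (background 4.89% higher, 3.7% lower, 8.59% in all), all higher in DNMT3ABKO cells: Manba (0.60 ± 0.12, adjusted p = 0.0128), Lamp1 (0.57 ± 0.14, adjusted p = 0.0344) and Tpp1 (0.52 ± 0.13, adjusted p = 0.0373). Tpp1 stood at 37.3 and 39.3 TPM in KH and at 46.3 and 46.9 TPM in DNMT3ABKO cells at 144 h. Lamp1 stood there at 213 and 209 TPM and at 261 and 283 TPM. The count of 3 became 0 without KH 144 h replicate 1 or DNMT3ABKO 144 h replicate 2, 1 without DNMT3ABKO 144 h replicate 1, KH 0 h replicate 2 or any 72 h library, 6 without KH 0 h replicate 1 and 11 without DNMT3ABKO 0 h replicate 2. Tpp1 lost its call with the replicate block. The macrophage markers also differed in the 144 h response, with 8 of 16 called higher.

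The calls were set beside the promoter elements shown above. Of the 13 members with an E-box core, 4 were called higher and 2 lower in KH cells at 72 h, and 4 and 4 at 144 h. Of the 24 with a window and no core, 7 were higher and 8 lower, and 4 and 13. In DNMT3ABKO cells the counts were 4 higher and 5 lower, and 6 and 4, for those with the core, and 6 and 12, and 7 and 12, for those without. Over all tested genes with a window, 33.0% of those with the core and 29.9% of those without were called higher in KH cells at 72 h, and 28.75% and 27.3% at 144 h. In DNMT3ABKO cells these shares were 36.4% and 34.85%, and 35.5% and 30.9%. Called lower were 20.1% with and 21.8% without the core, and 25.4% and 27.3%, in KH cells, and 20.7% and 24.1%, and 25.2% and 29.85%, in DNMT3ABKO cells. For the form TCACGTGA the shares over all genes lay further apart: 37.3% with and 30.1% without it were higher and 12.3% and 21.8% lower in KH cells at 72 h. At 144 h in KH cells 33.6% with and 27.4% without it were higher and 18.2% and 27.3% lower. In DNMT3ABKO cells 40.9% and 34.9% were higher and 15% and 23.9% lower at 72 h. At 144 h these shares were 41.8% and 31.2%, and 17.7% and 29.55%. Of the 6 members with that form, 2 were higher and 1 lower in KH cells at 72 h, and 2 and 2 at 144 h. In DNMT3ABKO cells the counts were 2 and 2, and 2 and 1. Among these 6, Mcoln1 was higher and Ctsd lower in all 4 responses. The part of the element in the calls was not tested.

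Other lysosomal genes, named here after their values were seen, were divided as well. Of 71 found, 68 passed the filter. Of these, 14 were called higher and 14 lower in KH cells at 72 h, 11 and 24 at 144 h, and 18 and 22, and 22 and 21, in DNMT3ABKO cells, with medians of 0.01, -0.07, 0.06 and 0.02. The shares called were 41.2% and 51.5% in KH and 58.8% and 63.2% in DNMT3ABKO cells, beside 47.8%, 51.3%, 56% and 57.6% of all genes. Ctsf, a cysteine protease, stood at 7.20 and 8.11 TPM in KH cells at 0 h and 22.3 and 21.1 TPM at 72 h (1.39 ± 0.09, adjusted p = 3.25e-06). Ctsk, a collagen-degrading protease, fell from 10.1 and 11.5 TPM at 0 h to 1.11 and 0.993 TPM at 144 h in KH cells (-2.52 ± 0.18, adjusted p = 2.52e-06). Ctss, Cd68 and Laptm5 in this list are also in the macrophage list. Among the transcription factors, Tfeb was lower in all 4 responses (-0.43 and -0.53 in KH, -0.90 and -0.51 in DNMT3ABKO cells), from a mean of 19.9 TPM at 0 h to 13.5 TPM at 144 h in KH cells. In DNMT3ABKO cells the means of Tfeb were 28.9 TPM at 0 h and 19.9 TPM at 144 h. Tfe3 was called in 1 of the 4, higher in DNMT3ABKO cells at 72 h (0.46 ± 0.12, adjusted p = 0.00711), with means of 62.1, 75.5 and 76.3 TPM over time in KH cells. Mitf, a related factor, was called in 1 of the 4, higher in KH cells at 72 h (0.57). Its means over time in KH cells were 4.0, 6.4 and 3.4 TPM. Transcript levels of these factors do not show where the proteins were located.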

How the data were processed

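Per the submitters' processing notes, reads were trimmed with cutadapt 2.4, aligned to mm10 with STAR 2.7.3a and quantified with StringTie 2.0. Each deposited file holds the TPM of all genes in 1 library, scaled by the authors to a sum of 1000000, so the values are shares of a library's RNA. Total RNA per cell was not analysed here, so higher and lower refer to these shares. Without depth no counting interval is given.

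Genes averaging at least 1 TPM (15727) were tested as log2(TPM + 1) with limma 3.58.1 in R 4.3.3 (6 group coefficients, no covariate, a mean-variance trend), in 11 contrasts, with Benjamini-Hochberg adjustment over all tested genes. The authors' own test takes counts, and TPM are not counts, so it was left out. The limma fit was tested on simulated data for 1 contrast, KH at 72 h against 0 h, and the other steps were not. The members, gene lists and tests were chosen with earlier results of these data known. Values in every library are given for the 3 highest and 3 lowest called members of each response and the 2 highest and 2 lowest between lines, where the groups did not overlap, and for other members and genes chosen after their values were seen. Results were recomputed with a pseudocount of 0.1 TPM, without a filter (37364 genes), after median-ratio scaling, with only the groups compared, with the replicate number as a centred block within each line, and without each library in turn. Python 3.11.15, pandas 2.3.3, NumPy 2.4.6 and matplotlib 3.10.9 were used.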

Additional observations from a re-analysis of the deposited data

Results flagged for a closer look

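The response to mTORi differed between the lines, by a test of the difference itself (limma, DNMT3ABKO minus KH), for 4 members at 72 h and 3 at 144 h. At 72 h the differences on the log2 scale were 0.59 for Manba, -0.68 for Arsa, -0.57 for Ctsb and -0.47 for Psap. At 144 h they were 0.60 for Manba, 0.57 for Lamp1 and 0.52 for Tpp1. Psap kept its call under all 18 alternatives, with adjusted p between 0.0031 and 0.0453. Manba lost its call in 7 of 18 alternatives at 72 h (adjusted p up to 0.0905) and in 3 of 17 at 144 h (up to 0.0608). Arsa lost it in 9 of 18 and Ctsb in 8 of 18, Lamp1 in 11 of 17 and Tpp1 in 12 of 17. Lamp1 lies on chromosome 8, where the median difference between the lines was -0.14, -0.12 and -0.18 over 791 tested genes at 0, 72 and 144 h. Over all tested genes this median was -0.05, -0.04 and -0.04, and over 579 genes of chromosome X -0.03, -0.03 and -0.02. The other chromosomes were not examined, and a link to the call of Lamp1 was not tested.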

How the results depend on the processing

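No called result changed sign under any alternative run, and the counts of members called in the responses of KH at 144 h and of DNMT3ABKO at 72 and 144 h stayed within 1.5 times the reported count under all alternatives. Without a filter on low values, which tests more genes, 14 members were called in KH cells at 72 h, and 1 each for the line difference in response at 72 and at 144 h. With only the groups compared in the model, 18 members were called between lines at 72 h, 23 at 144 h, 1 for the difference at 72 h and 0 for that at 144 h. Median-ratio scaling gave 2 members between lines at 0 h and 9 for the difference at 144 h. The causes were not tested. The study states that time points of a replicate were handled side by side. Deviations of same-numbered libraries correlated at -0.10 to 0.10 between groups of a line and at up to 0.34 over all groups. The value of 0.34 was that between the lines at 0 h, and no block across lines was run. With the replicate block within each line, 1 member was called between lines at 0 h and 2 for the difference at 72 h, and the other counts stayed within 1.5 times. Crossing the numbers of DNMT3ABKO at 72 h, added after seeing the data, gave 31 for its 72 h response, 16 for 72 to 144 h, 12 between lines at 72 h and 4 for the difference. Leaving out each library gave 15 to 31, 21 to 32 and 6 to 19 members in KH cells (72 h, 144 h, and 144 against 72 h), 22 to 31, 28 to 33 and 4 to 20 in DNMT3ABKO cells, 0 to 13, 5 to 17 and 5 to 23 between lines at 0, 72 and 144 h, and 1 to 6 and 0 to 11 for the differences. A library left alone in its group was assumed to vary like the other groups. With 2 libraries per group and read depth not used here, precision is limited most for low members such as Sgsh and Arsb.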
